A study of Homo sapiens with 4 samples.

Results

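The messengers described here encode the heterogeneous nuclear ribonucleoproteins (hnRNPs), their close relatives and 2 proteins of the FET family. They were chosen by name: 31 gene symbols, found in 32 of the 18276 gene rows of the count table, since MATR3 has 2 rows. Coordinates are those of RefSeq on GRCh38.p14, in which all 31 symbols were found. The series compared RNA pulled down by an SF3B6 antibody (IP, 2 libraries) with input RNA (2 libraries) from MDA-MB-231 cells, an established triple-negative human breast cancer line, and asks which transcripts SF3B6 contacts. All 4 libraries came from cells with no transfection named in their labels, which were irradiated once at 400 mJ/cm2. Their lysate was treated with DNase and then with micrococcal nuclease. The IP libraries were made with 5 ug of the SF3B6 antibody, and no library from the control IgG antibody was analysed here, so RNA that the beads or antibody hold unspecifically cannot be told apart from RNA bound to SF3B6. The sample entries for the line do not all end in the same digit. The name in the titles, MDA-MB-231, is used throughout.

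SF3B6 belongs to SF3b, a complex within the U2 small nuclear ribonucleoprotein, and lies close to the branch point adenosine of the intron. The hnRNPs coat new transcripts in the nucleus, and several of them decide which splice sites the spliceosome uses, often against the SR proteins. Many of them also act on their own messengers through alternative exons or introns, which keeps their levels in bounds. The FET proteins EWSR1 and TAF15 bind RNA and take part in transcription and splicing. The libraries report the messengers of these genes, not the proteins.

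The gene counts of SF3B6 IP 1 were 55492 and those of SF3B6 IP 2 were 30431, while input 1 held 317190 and input 2 held 519836. A count of 0, with 3 counts as the limit, thus allowed up to 54.1, 98.6, 9.46 and 5.77 counts per 1e+06 gene counts (CPM) in these libraries. The CPM given below for single messengers rest on scaled library sizes instead, where 3 counts stood at 66.1, 131, 10.6 and 6.1. Nuclear protein-coding genes held 70.0% and 59.3% of the IP counts and 77.7% and 82.5% of the input counts. IP and input have no common absolute scale, so each comparison is relative to the rest of a library. Of 6 mesenchymal markers of such cells, AXL (97 and 46 IP counts, 871 and 1537 input counts) and VIM (43 and 16, 286 and 532) had the most counts, while SPARC had 0, 2, 0 and 2. All 6 summed to 0.278% and 0.243% of IP gene counts and 0.406% and 0.448% of input gene counts. The luminal and epithelial markers CDH1 and EPCAM had 1, 0, 1 and 3 and 1, 0, 2 and 4 counts in SF3B6 IP 1, SF3B6 IP 2, input 1 and input 2. ERBB2 held 7 of 9, 3 of 4, 76 of 83 and 147 of 169 counts of the 4 luminal and epithelial markers with rows. Markers of blood and endothelium summed to 0, 0, 2 and 1.

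The summed hnRNP and FET messengers took a similar part of IP and input libraries. They had 175 and 75 counts in SF3B6 IP 1 and 2, and 946 and 1670 in input 1 and 2. That was 0.315% (Wilson 95% interval 0.272% to 0.366%) and 0.246% (0.197% to 0.309%) of IP gene counts, against 0.298% (0.280% to 0.318%) and 0.321% (0.306% to 0.337%) of input gene counts. Input 1 lay between the 2 IP values and input 2 above both, so the groups overlapped. The group means were 0.281% ± 0.0487 in IP and 0.310% ± 0.0163 in input (SD, n = 2 libraries each), a ratio of 0.907. Without molecular identifiers these intervals and those below cover counting error only. The side of 1 on which the ratio fell depended on the scale: it was 1.06 on CPM after TMM scaling (trimmed mean of M values), 1.12 as a share of nuclear protein-coding counts, and 0.346 on the library totals implied by the deposited FPKM values. Within nuclear protein-coding counts the share was 0.450% and 0.416% in IP and 0.384% and 0.389% in input, which put each IP library above each input. The sum over the members was not tested.

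No single messenger of these families differed between IP and input past the threshold. Of the 32 rows, 16 had counts enough for the test, edgeR's quasi-likelihood test over 3668 genes with Benjamini-Hochberg adjustment at 0.05, and 0 of the 16 were called. Over all tested genes 4.06% were called, 2.7% higher and 1.36% lower, so a count of 0 among 16 is near what that background gives. The smallest edgeR adjusted p was 0.177. At an unadjusted p under 0.05 there were 2 of 16, HNRNPF on the higher side and HNRNPD on the lower, where 7.93% and 7.72% of all tested genes stood. DESeq2 called 0 of the 16, with 1 unadjusted p under 0.05, and gave no adjusted p for 5 of them. Over all 3668 genes DESeq2 called only 35 higher and 3 lower, and gave no adjusted p for 1849. At an unadjusted DESeq2 p under 0.05 stood 177 of all genes on the higher side and 98 on the lower. On CPM after TMM, IP and input did not overlap in 7 of the 16: IP was higher in 5 (20.9% of all tested genes) and lower in 2 (28.5%). The test needed at least 53.7 CPM in 2 libraries. This was reached in all 4 libraries by 11 rows, through the inputs by RALY, HNRNPL and EWSR1, through the IP libraries by PCBP1, and through 1 of each by HNRNPC. A row such as PCBP1 could be tested only because it was high in IP, so nothing is read from the 16 as a group.

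The scale moved all genes and these messengers alike. With TMM the median log2 fold change of all tested genes was -0.06. Upper quartile scaling put it at -0.19, library totals at -0.27 and the totals implied by FPKM at -1.65. The called genes split into 99 higher and 50 lower with TMM, 67 and 69 after upper quartile scaling, 60 and 90 by library totals, and 17 and 2098 by the FPKM totals. Under the FPKM totals 9 of the 16 messengers were called lower, beside 57.2% of all tested genes, and all 16 had log2 fold changes below 0. Gene counts made up 7.32% and 6.07% of the FPKM totals in the IP libraries and 15.0% and 20.4% in the inputs. Log2 fold changes below 0 numbered 5 of 16 with TMM, 8 with upper quartile scaling and 10 with library totals, so the direction of members near 0 depends on the scale. With TMM, upper quartile scaling and library totals 0 of the 16 were called.

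**Figure D1:**
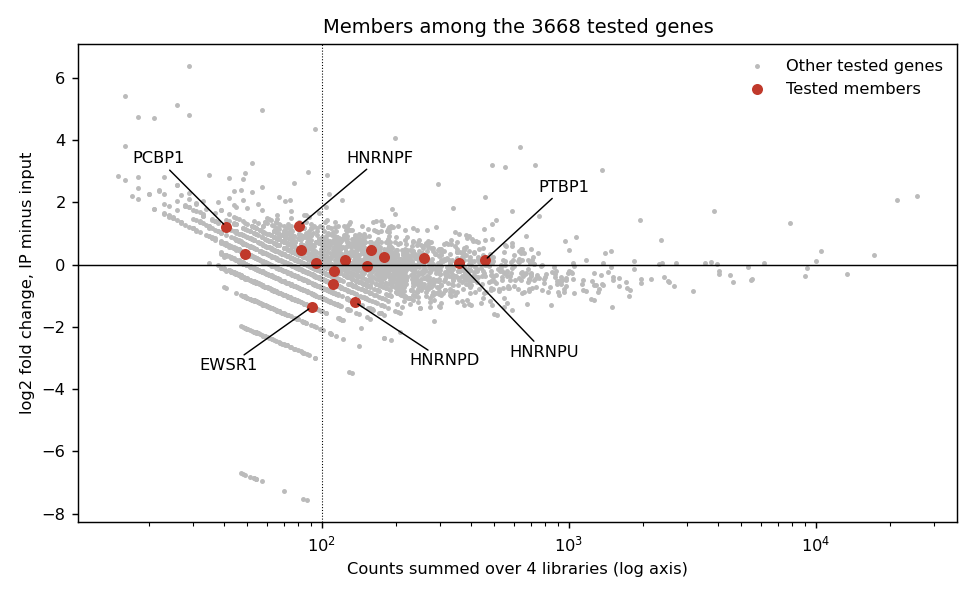
Each point is 1 of the 3668 tested genes, with its counts summed over 4 libraries (log axis) against its log2 fold change, IP minus input; the 16 tested members are in red and a dotted line marks 100 counts. The members lie within the cloud of other genes, from -1.36 (EWSR1) to 1.24 (HNRNPF), and those with the most counts, PTBP1 and HNRNPU, lie near 0.

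The firmest values are those of the 10 messengers with at least 100 counts over the 4 libraries. All 1712 genes of that depth in the table were tested, so the filter chose none of them, and 6.25% of the 1712 were called against 0 of the 10. Their log2 fold changes ran from -1.20 to 0.45 with a median of 0.09, beside a median of -0.16 over the 1712. In 7 of the 10 the value lay within the middle 50% of the 1712 genes, from -0.57 to 0.27. IP was higher than input without overlap in 3 of the 10 (17.5% of the 1712) and lower in 1 (37.1%).

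Among the L and PTB proteins, PTBP1 had the most counts of any member. PTBP1, the polypyrimidine tract binding protein, represses exons by covering pyrimidine-rich splice sites. It lies on chromosome 19, 797452 to 812312, and showed 30 and 10 counts in the IP libraries and 137 and 279 in the inputs. As CPM after TMM these were 661 and 436 in IP and 482 and 569 in input, so the IP values lay on either side of the inputs. Its log2 fold change was 0.13 ± 0.25 SE (edgeR adjusted p = 0.884). The ratio of pooled counts was 1.09 with an exact interval from 0.767 to 1.51, the narrowest of any member. Without SF3B6 IP 1 the log2 fold change was -0.29.

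The other members of that subfamily had fewer counts. HNRNPL, which binds CA-rich stretches in exons and introns (chromosome 19, 38836370 to 38852347), had 8 and 0 counts against 32 and 55. All its IP counts were thus in SF3B6 IP 1. Its log2 fold change was 0.06 ± 0.60 SE (edgeR adjusted p = 0.978), and it was -0.16 with library totals. Without SF3B6 IP 2 it was 0.64, and without SF3B6 IP 1 the fit gave -7.91, which is no measure of size since the remaining IP library has 0 counts. HNRNPLL, its relative in lymphocyte splicing, had 4 and 0 against 7 and 18. PTBP2, the form known from neurons, had 1 and 1 against 2 and 4, and PTBP3 had 1 and 0 against 5 and 13. HNRNPLL, PTBP2 and PTBP3 were too low to be tested.

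The U subfamily was the other large contributor. HNRNPU, also called SAF-A, binds RNA and chromatin scaffolds, and lies on chromosome 1, 244850297 to 244864543. It had 15 counts in each IP library and 123 and 207 in the inputs. With the smaller depth of SF3B6 IP 2 that was 330 and 654 CPM in IP, against 433 and 422 in input, so that the 2 IP libraries stood on opposite sides of the inputs. Its log2 fold change was 0.05 ± 0.28 SE (edgeR adjusted p = 0.969) and -0.37 without SF3B6 IP 2. HNRNPUL1 (chromosome 19, 41262557 to 41307787), a relative of HNRNPU, had 16 and 8 counts against 77 and 159, or 352 and 349 CPM in IP and 271 and 324 in input. The IP values were slightly above the inputs, at a log2 fold change of 0.21 ± 0.32 SE (edgeR adjusted p = 0.841), which did not pass. HNRNPUL2 had 0 and 0 counts against 5 and 9, where about 1.24 IP counts would have matched input, so no fold is given. A further row of the table, HNRNPUL2-BSCL2, stands for transcripts that run from HNRNPUL2 into the next gene, and held 12 and 6 against 58 and 106 (log2 fold change 0.32 ± 0.37 SE, edgeR adjusted p = 0.764). The counting rule for such overlapping rows is unknown, so HNRNPUL2 itself is uncertain.

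**Figure D2:**
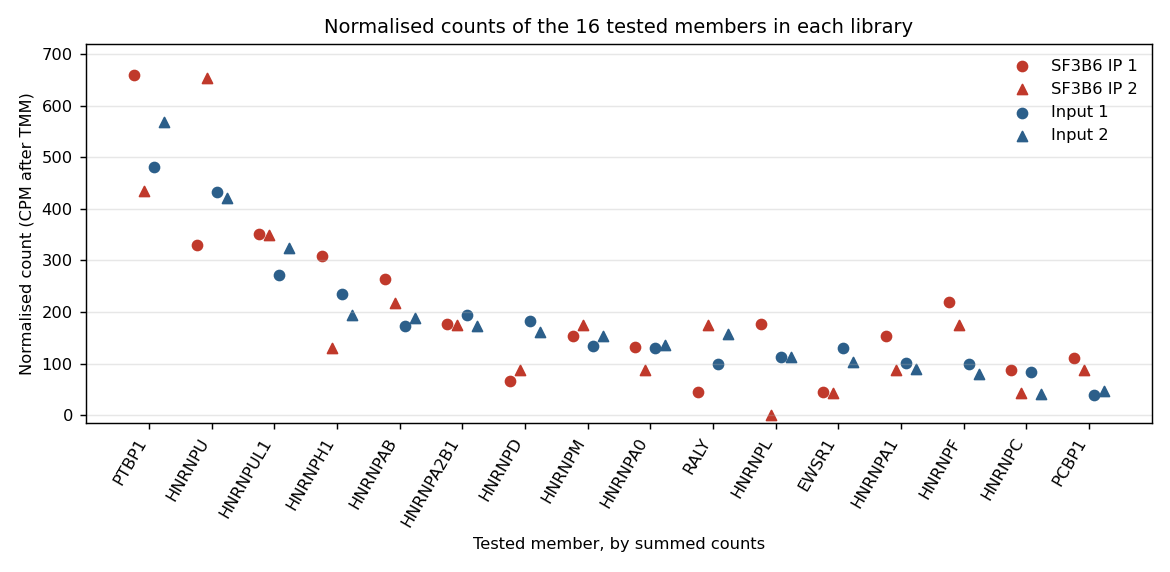
Normalised counts (CPM after TMM, linear axis) of the 16 tested members in each library, ordered by summed counts; red marks the IP libraries and blue the inputs, circles replicate 1 and triangles replicate 2. IP values of PTBP1, HNRNPU and HNRNPH1 lie on both sides of the inputs and those of HNRNPD and EWSR1 below them. Those of HNRNPF, PCBP1, HNRNPAB, HNRNPUL1 and HNRNPM lie above them, where PCBP1 passed the filter through the IP libraries alone.

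The A/B proteins, abundant hnRNPs that bind exonic and intronic silencers, showed no shared direction. HNRNPA2B1 (chromosome 7, 26189927 to 26200746) had 8 and 4 IP counts and 55 and 85 input counts. Its 176 and 174 CPM in IP sat beside 194 and 173 in input, the closest match among the well counted messengers (log2 fold change -0.04 ± 0.44 SE, edgeR adjusted p = 0.978; 0.02 without input 1). HNRNPA0 (chromosome 5, 137745651 to 137754363) had 6 and 2 against 37 and 67 counts, at -0.20 ± 0.53 SE (edgeR adjusted p = 0.924). Its gene was taken as without introns, since the length implied by its FPKM (8712 bases) was close to its RefSeq span (8713 bases). HNRNPA1, the best known repressor of the group, had 7 and 2 against 29 and 44, with 154 and 87.1 CPM in IP around inputs of 102 and 89.7. Its log2 fold change was 0.48 ± 0.55 SE (edgeR adjusted p = 0.763), and -0.11 without SF3B6 IP 1. HNRNPA3 had 6 and 1 against 10 and 14 counts and was not tested. The ratio of its pooled counts was 3.31, with an interval from 1.20 to 7.91.

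In the AB and D subfamily the members differed from each other. HNRNPAB (chromosome 5, 178204533 to 178211163), an RNA binding protein also known as CBF-A, had 12 and 5 IP counts beside 49 and 92 input counts. Both IP values, 264 and 218 CPM, lay above the inputs of 172 and 188 CPM, at a log2 fold change of 0.45 ± 0.39 SE (edgeR adjusted p = 0.625). HNRNPD, also called AUF1, binds AU-rich elements and promotes the decay of messengers that carry them (chromosome 4, 82352498 to 82373991). Its IP counts were 3 and 2 and its input counts 52 and 79, which gave 66.1 and 87.1 CPM against 183 and 161. The value in SF3B6 IP 2 rests on counts under the limit of 3. Both IP values lay below both inputs, but the log2 fold change of -1.20 ± 0.58 SE did not pass (edgeR adjusted p = 0.310). It ran from -1.35 to -0.95 with 1 library left out. The ratio of pooled counts was 0.433 with an interval from 0.138 to 1.04, so it rests on 5 IP counts where 11.6 would have matched input. HNRNPDL, its paralogue, had 1 and 0 against 8 and 29 counts, a pooled ratio of 0.306 with an interval from 0.00755 to 1.82. HNRNPD stood at -2.78 with the FPKM totals (edgeR adjusted p = 0.00349), beside -1.65 for the median gene.

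The F/H proteins bind runs of G and can enhance or silence splicing from introns. HNRNPH1 (chromosome 5, 179614178 to 179634784) had 14 and 3 counts against 67 and 95. Its IP values of 308 and 131 CPM lay on both sides of 236 and 194 in input, at a log2 fold change of 0.24 ± 0.39 SE (edgeR adjusted p = 0.854) and -0.68 without SF3B6 IP 1. HNRNPF (chromosome 10, 43385618 to 43409186) had the highest log2 fold change of the tested members. Its counts were 10 and 4 in IP and 28 and 39 in input, and its CPM 220 and 174 against 98.5 and 79.5, with no overlap. The log2 fold change was 1.24 ± 0.49 SE and did not pass (edgeR adjusted p = 0.177). Leaving out each library in turn gave 1.01 to 1.35, and the value was -0.38 with the FPKM totals. HNRNPH2 had 0 and 0 against 2 and 3 counts and HNRNPH3 had 0 and 2 against 2 and 7, both too few to test.

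The K and PCBP proteins bind runs of C. PCBP1 (chromosome 2, 70087477 to 70089203), whose gene was taken as without introns like that of HNRNPA0, had 5 and 2 counts against 11 and 23. Its CPM of 110 and 87.1 lay above 38.7 and 46.9, at a log2 fold change of 1.22 ± 0.67 SE (edgeR adjusted p = 0.374). The log2 fold change was from 0.99 to 1.38 with 1 library left out and -0.38 with the FPKM totals. PCBP1 could be tested only because it passed the filter through the IP libraries, so its place above the inputs is not read as a result. Its 2 counts in SF3B6 IP 2 are also under the limit of 3 counts. PCBP2 had 3 and 0 against 8 and 10 counts, and HNRNPK, which links transcription and splicing, 2 and 2 against 16 and 24. HNRNPK was not tested, and its pooled ratio was 1.13 with an interval from 0.295 to 3.14.

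RALY and HNRNPC are related proteins that bind runs of U, the latter as a measure of transcript length and a guard of Alu exons. RALY (chromosome 20, 33993911 to 34084884) had 2 and 4 counts against 28 and 77. Its CPM of 44.0 and 174 lay below and above the inputs of 98.5 and 157, and the log2 fold change of -0.62 ± 0.63 SE (edgeR adjusted p = 0.714) became 0.37 without SF3B6 IP 1 and -1.61 without SF3B6 IP 2. HNRNPC had 4 and 1 against 24 and 20 counts, at 0.34 ± 0.77 SE (edgeR adjusted p = 0.901), -0.40 without SF3B6 IP 1 and -0.21 without input 2. HNRNPM, a splicing regulator known from breast cancer cells (chromosome 19, 8444975 to 8489114), had 7 and 4 against 38 and 75 counts. Its 154 and 174 CPM exceeded the inputs of 134 and 153, though by little, at 0.14 ± 0.47 SE (edgeR adjusted p = 0.942). Of the 2 rows of MATR3, which encodes a protein of the nuclear matrix, ENSG00000280987.4 had 0 and 2 counts against 16 and 26, and ENSG00000015479.20 had 0 and 0 against 5 and 3. HNRNPR had 2 and 0 against 8 and 9. SYNCRIP, also called hnRNP Q, had 3 and 0 against 1 and 0 counts, all IP counts in SF3B6 IP 1, and the ratio of 34.0 has an interval from 2.73 to 1785.

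The FET messengers and ELAVL1 had ratios below 1, on few counts. EWSR1 (chromosome 22, 29268268 to 29300521) had 2 and 1 counts against 37 and 51. Its CPM of 44.0 and 43.6 lay below the inputs of 130 and 104, but both IP values rest on counts under the limit of 3. The log2 fold change was -1.36 ± 0.75 SE, the lowest of the tested members, and did not pass (edgeR adjusted p = 0.374). Since only 3 IP counts stood against 7.77 that would have matched input, the ratio of pooled counts, 0.386, has an interval from 0.0782 to 1.17. TAF15 had 2 and 0 against 14 and 28, a ratio of 0.540 with an interval from 0.0633 to 2.07. Together these FET messengers had 4 and 1 against 51 and 79 counts, at 0.436 with an interval from 0.139 to 1.04. ELAVL1, or HuR, stabilises messengers with AU-rich elements, and had 1 and 0 counts against 13 and 26. Its ratio was 0.291 with an interval from 0.00718 to 1.72. TAF15 and ELAVL1 were not tested, and the interval of each of these ratios includes 1.

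**Figure D3:**
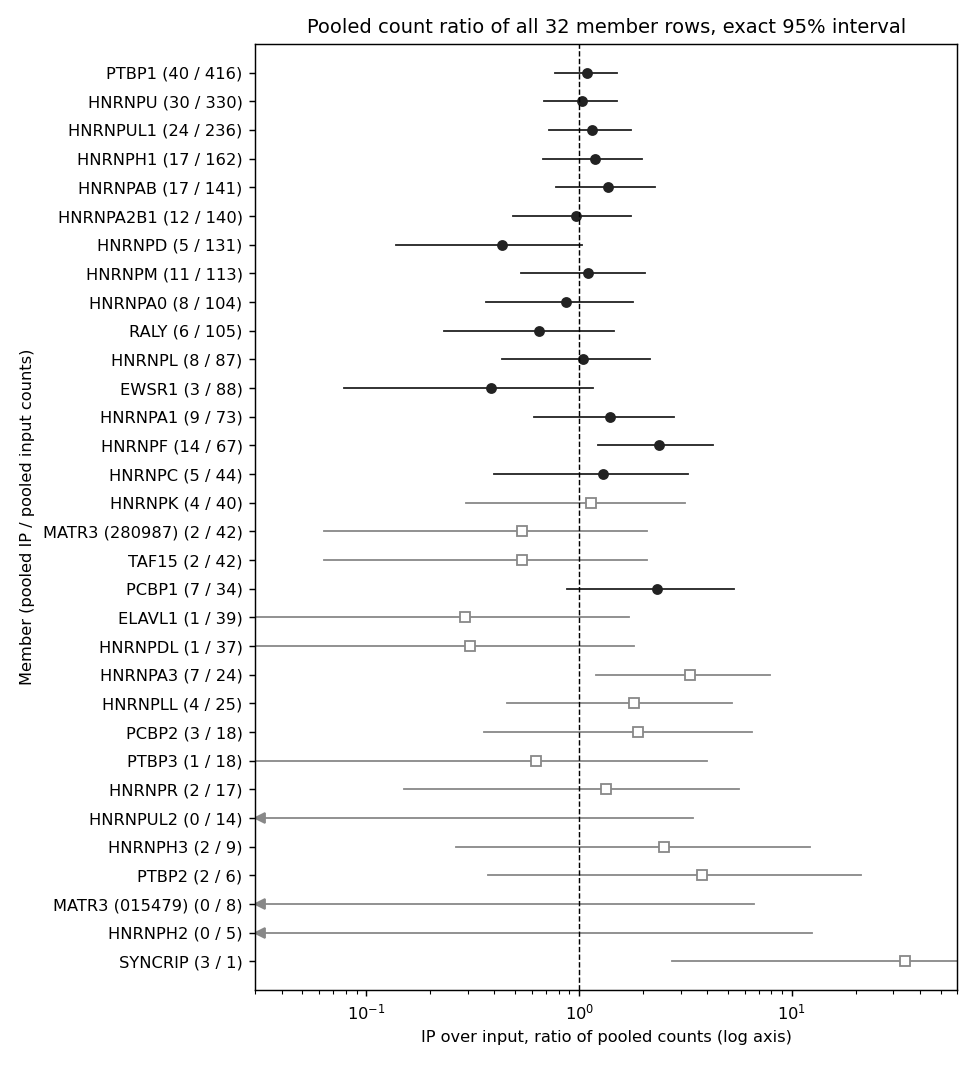
Ratio of pooled IP over pooled input counts (scaled by TMM library sizes, log axis) of all 32 member rows with exact 95% intervals, the pooled counts beside each name; filled circles were tested, open squares were not, arrowheads mark rows with 0 IP counts, and lines that reach the edge continue beyond it. Intervals cross 1 in all rows but HNRNPF, HNRNPA3 and SYNCRIP, which lie above it.

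Over all 32 rows, pooled IP counts had a median of 4.5 and input counts of 42, so that for most members counting error alone spans several-fold. A total of 12 rows had 0 counts in SF3B6 IP 2 and 5 had 0 in SF3B6 IP 1. Both IP libraries had 0 counts in 9.38% of the member rows and in 42.8% of all rows. The pooled ratio was above 1 in 19 rows and below 1 in 13, with a median of 1.10. Over the 17551 rows with input counts the median was 0.515, at other depths. The interval of the members' ratio lay above 1 in 3 of the 32, HNRNPF, HNRNPA3 and SYNCRIP, and below 1 in 0, where 3.1% and 1.48% of the 18276 rows of the table had such intervals. Rows differ in depth, which sets how often an interval can leave out 1, and whether 3 of 32 exceeds the background was not tested.

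By subfamily, the largest parts of the sum were those of L and PTB (22.0% of the members' IP counts and 21.1% of their input counts) and U (21.6% and 22.2%). F/H made up 13.2% and 9.29%, K and PCBP 5.6% and 3.52%, AB and D 9.2% and 11.8%, and FET 2.0% and 4.97%. As shares of gene counts, K and PCBP were above both inputs in both IP libraries (0.0180% and 0.0131% against 0.0110% and 0.0110%). AB and D (0.0288% and 0.0230% against 0.0344% and 0.0385%) and FET (0.00721% and 0.00329% against 0.0161% and 0.0152%) were below them, and so was ELAVL1. The ratio of group means was 1.42 for K and PCBP, 1.24 for F/H, 0.712 for AB and D, and 0.336 for FET. All nuclear protein-coding genes together stood at 0.807, also with both IP libraries below both inputs. Within nuclear protein-coding counts the 4 subfamily ratios were 1.74, 1.51, 0.880 and 0.405. As a share of gene counts the ratio was lowest for ELAVL1 (0.198) and highest for R and Q (1.97). The IP counts of both were all in SF3B6 IP 1, so that both ratios were 0 without that library. Without SF3B6 IP 2 they were 0.396 and 3.94. Leaving out SF3B6 IP 1 moved FET to 0.210 and L and PTB from 0.897 to 0.562. The ratio ran from 1.20 to 1.64 for K and PCBP, 1.00 to 1.47 for F/H and 0.632 to 0.792 for AB and D with 1 library left out. The ratio of AB and D was 0.347 without HNRNPAB, which had the most counts in it, and that of F/H was 1.93 without HNRNPH1. These sums were not tested, and each rests on at most 55 IP counts.

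**Figure D4:**
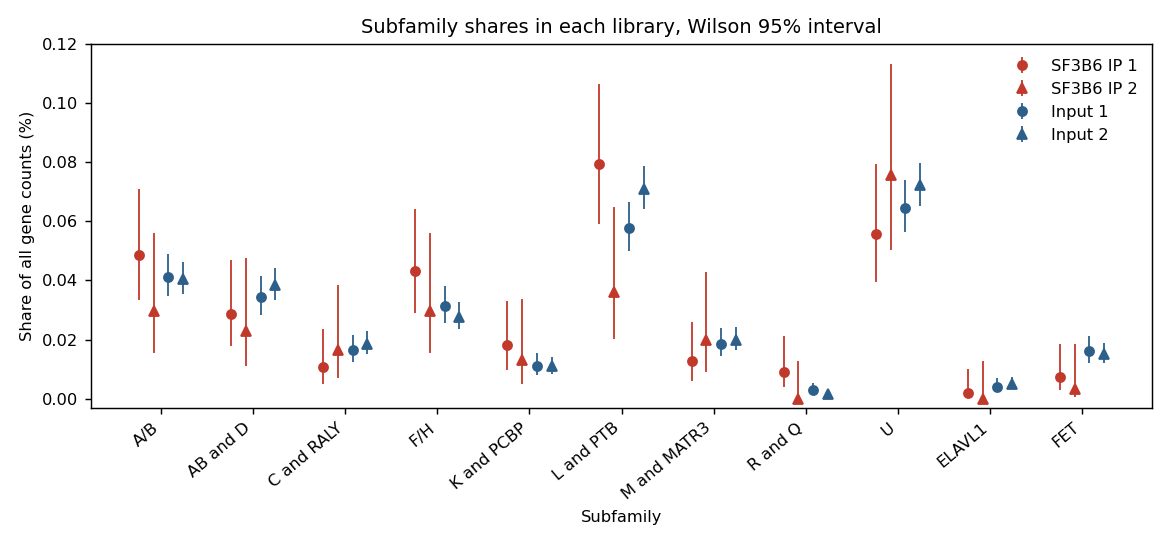
Share of all gene counts (%) taken by each subfamily in each library, with Wilson 95% intervals; red marks IP and blue input, circles replicate 1 and triangles replicate 2. The intervals of the IP libraries are wide, and for most subfamilies IP and input values overlap. In IP, FET, ELAVL1 and AB and D lie below the inputs, and K and PCBP above them.

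Levels between genes were compared per length, as the deposited FPKM. In the inputs HNRNPAB had the highest FPKM of these messengers (10.9 and 17.1), then PTBP1 (8.59 and 14.6) and HNRNPUL1 (5.42 and 9.33). HNRNPA1 stood at 2.04 and 2.58, HNRNPK at 1.48 and 1.85, and SYNCRIP at 0.05 and 0. The 3 highest kept that order in each input. HNRNPF (4.03 and 4.68), HNRNPD (3.51 and 4.44) and HNRNPH1 (3.33 and 3.93) also kept theirs, while HNRNPM (3.19 and 5.25) stood below these in input 1 and above them in input 2. Differences between genes were not tested. In IP the highest were again HNRNPAB (7.48 and 4.71) and PTBP1 (5.26 and 2.65). The lengths behind these values bear on the order: counts over FPKM imply 22516 bases for HNRNPU, 12595 for HNRNPA2B1 and 6697 for HNRNPA1. These exceed the RefSeq spans of 14247, 10820 and 6362 bases, and a longer model gives a lower FPKM for the same count.

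Other splicing genes are set beside the hnRNPs for scale. The list held 50 genes of the U2 snRNP, the SR proteins and further splicing regulators, of which 49 had rows and 27 were tested. Of the 27, 0 were called (edgeR, smallest adjusted p = 0.0676), beside 4.06% of all tested genes. At an unadjusted edgeR p under 0.05 there were 3 higher and 1 lower, where 7.93% and 7.72% of all tested genes stood. IP was higher than input without overlap in 7 (20.9% of all tested genes) and lower in 7 (28.5%). The 15 genes with at least 100 counts had a median log2 fold change of -0.05, from -1.50 to 1.19. SRRM2, a large SR-related protein, had the most counts and stood at -0.25 ± 0.22 SE (edgeR adjusted p = 0.642), KHSRP at 0.34 ± 0.33 (0.679; -0.34 without SF3B6 IP 1) and SRSF2 at -0.75 ± 0.43 (0.393). The summed share of this list was 0.470% and 0.283% in IP against 0.430% and 0.484% in input. That was a ratio of 0.824, beside 0.907 for the hnRNP and FET messengers and 0.807 for all nuclear protein-coding genes. As shares of nuclear protein-coding counts the ratio was 1.01 for this list and 1.12 for the hnRNP and FET messengers. The difference between these lists was not tested.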

How the data were processed

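For each of the 4 libraries the authors deposited raw counts of reads by gene. The authors also deposited FPKM, which divide such counts by gene length and library total. HISAT2, HOMER and the hg38 build appear in the submitters' processing notes without roles or versions. Which counter was used, whether it used strand or reads with several matches, and which total the FPKM rest on: not given in the sources used here. Near-identical copies and overlapping genes can therefore share reads in ways the tables do not show.

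Counts were tested with edgeR 4.0.16 in R 4.3.3 (default expression filter, TMM over the tested genes, quasi-likelihood test with group as the one term, Benjamini-Hochberg at 0.05). The script was checked on simulated counts. Log2 fold changes are IP minus input. Each SE is the absolute log2 fold change over the square root of the F statistic. CPM after TMM are counts per 1e+06 of the scaled library size, and pooled ratios use the same sizes with exact 95% intervals. The FPKM totals were recovered from counts over FPKM (1515 genes for the libraries' ratios, 12 mitochondrial messengers for the absolute size), which gave 0.758, 0.501, 2.12 and 2.55 in units of 1e+06 for SF3B6 IP 1, SF3B6 IP 2, input 1 and input 2. Fits without 1 library kept the 3668 genes and take the lone library's spread from the other group. DESeq2 1.42.0 and limma 3.58.1 (on log2 of FPKM plus 1 or 0.1) served as alternatives.

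As a check for a library present in duplicate, chi-square per degree of freedom was 4.33 over 576 genes between the IP libraries and 1.72 over 6053 between the inputs, so no pair agreed within sampling noise. The series' text calls the libraries of a group biological replicates. Named messengers are those with at least 100 summed counts, the 3 highest and 3 lowest tested, those without introns, and the rest by their counts; of the other splicing genes, the 3 with most counts. A gene was taken as without introns where the implied length was within 5% of its RefSeq span. This rule cannot by itself show that introns are absent, since implied lengths exceeded the span for HNRNPU, HNRNPA2B1 and HNRNPA1. The members and lists were chosen with earlier results of these data known. Sequences are not shown, since counts per gene do not point to a stretch of any transcript.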

Additional observations from a re-analysis of the deposited data

How the results depend on the processing

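The fits by gene covered 3668 genes, except for 18276 with no filter and 1115 with at least 50 counts in 2 libraries. Of the 3668, DESeq2 gave no adjusted p for 1849. Numbers of calls are thus not comparable between these settings. Under every alternative 0 members were called higher. Members called lower were 0 with each scaling except the FPKM totals (9), with 12 by limma on log2(FPKM + 1) and 6 on log2(FPKM + 0.1); the list of other splicing genes gave 13, 16 and 11 in these. Over all genes, higher and lower calls were 60 and 90 with library totals, 17 and 2098 with FPKM totals, 35 and 3 by DESeq2, 50 and 163 with no filter, 80 and 25 with at least 50 counts in 2 libraries, 25 and 2548 and 25 and 1865 by limma at the 2 pseudocounts, and 0 to 73 and 0 to 32 without 1 library. The 0 calls came without input 1 (edgeR, 137 higher and 92 lower at an unadjusted p under 0.05) and without input 2 (134 and 76). The replicate block gave 68 and 22 calls over all genes and 0 members, with HNRNPF at 1.15 (edgeR adjusted p = 0.373). Deviations of libraries with the same number had a correlation of -0.0028. With so few IP counts per gene this value cannot tell paired from unpaired libraries. Whether the number marks a pairing is not known, and the main fit has no term for it. Negative in place of positive, and called, were PTBP1 (-1.51, -1.35 and -1.56), HNRNPUL1 (-1.39 and -1.12), HNRNPU (-1.51 and -0.96), HNRNPH1 (-1.40 and -1.08), KHSRP (-1.29 and -1.19), HNRNPL (-1.23 and -2.79), HNRNPC (-0.64) and HNRNPM (-1.01) with FPKM totals or limma on FPKM, where the median of all genes was itself between -1.05 and -1.66. For the summed share the ratio was 1.12 in protein-coding counts and 0.346 with FPKM totals, and 0.796 to 1.02 without 1 library. Subfamily ratios with FPKM totals were 0.372 (A/B), 0.270 (AB and D), 0.286 (C and RALY), 0.481 (F/H), 0.545 (K and PCBP), 0.346 (L and PTB), 0.309 (M and MATR3), 0.356 (U) and 0.132 (FET). In protein-coding counts they were 0.880 (AB and D), 1.74 (K and PCBP) and 1.22 (U). Without the most abundant member they were 0.347 (AB and D), 1.93 (F/H), 0.539 (M and MATR3) and 17.1 (R and Q, from SYNCRIP alone). The FPKM totals scale all genes alike, and the cause of other differences was not tested. Depth limits these data: 170 IP counts stand behind the 10 best counted members and 80 behind the other 22 rows.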

Other observations

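Rows of the table named as pseudogenes of these messengers held few counts. The 9 such rows, 6 of them copies of HNRNPA1, had 3 and 2 counts in SF3B6 IP 1 and 2 and 3 and 8 in input 1 and 2. The ratio of their pooled counts was 5.15 with an exact interval from 1.40 to 16.1, and it was not tested. Adding them to the members moved the summed share by less than the spread between replicates.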
